A study of Mus musculus with 12 samples.

Results

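The coactivator YAP, its paralog TAZ, the TEAD factors through which both reach DNA, and the TEAD-binding repressor Vgll4 were followed in mouse embryonic stem cells (ESCs) in which YAP was lowered or raised. The members were 7 genes of the 24480 quantified, chosen by name, namely Yap1, Wwtr1 (which encodes TAZ), Tead1, Tead2, Tead3, Tead4 and Vgll4. The cells were E14Tg2a, a feeder-free mouse ESC line grown on gelatin in serum with leukemia inhibitory factor (LIF), and all 12 libraries came from this line after transient lipid transfection. In the knockdown (KD) experiment, 3 libraries received Stealth siRNAs against YAP (YAP KD) and 3 a scrambled control siRNA (CTR KD). In the overexpression (OE) experiment, 3 libraries received a plasmid with the coding sequence of mouse YAP behind the CAG promoter (YAP OE) and 3 a control plasmid (CTR OE), which encodes GFP by the labels and is an empty vector by the study's text. The labels give no hours after transfection, and the study's text gives them for the knockdown RNA only. Transfection was transient, so each library averaged cells that took up RNA or DNA and cells that did not, and a change in the share of a cell type could not be told apart from a change in RNA per cell. The plasmid carried the coding sequence only, so its reads entered the Yap1 count beside those of the endogenous RNA.

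YAP and TAZ have no DNA-binding domain of their own. The Hippo kinases MST and LATS phosphorylate them and hold them in the cytoplasm, and when this brake is off they enter the nucleus and bind a TEAD factor, which recognizes a short motif at target genes such as Ctgf and Cyr61. Vgll4 competes with YAP for the same TEAD surface and represses. In the early mouse embryo, Tead4 and nuclear YAP are needed in the outer cells for the trophectoderm fate, and in ESCs several TEAD paralogs are expressed side by side.

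The core of the TEAD motif was first looked for in the members' promoters. The letters GGAATG and their reverse complement CATTCC were searched on both strands in RefSeq promoters of build GRCm38.p6, from 250 bases before to 50 bases after each start. They occurred in 14.7% of 32851 promoters, and 16.6% of 27025 genes had at least 1 promoter with a match. Of the 7 members, 5 had an entry and 4 of these held a match. Yap1, Wwtr1, Tead3 and Vgll4 did, Tead2 did not, and Tead1 and Tead4 had no entry. The windows around 5 matches are given on the strand of the gene, 5′ to 3′, with the motif in capitals, for both coactivators, for Vgll4 with its relative Vgll3, and for the known target gene Cyr61 as a reference.
Yap1, chr9:8004678-8004791, minus strand, match 141 bases before the start: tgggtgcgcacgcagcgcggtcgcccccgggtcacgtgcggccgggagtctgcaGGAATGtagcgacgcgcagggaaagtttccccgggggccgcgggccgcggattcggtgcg
Wwtr1, chr3:57575987-57576100, minus strand, match 136 bases before the start: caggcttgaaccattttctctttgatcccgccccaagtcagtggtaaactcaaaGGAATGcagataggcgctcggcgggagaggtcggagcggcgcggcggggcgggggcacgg
Vgll4, chr6:114969268-114969297, minus strand, match 82 bases before the start: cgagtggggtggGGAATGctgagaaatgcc
Vgll3, chr16:65815072-65815185, plus strand, match 63 bases before the start: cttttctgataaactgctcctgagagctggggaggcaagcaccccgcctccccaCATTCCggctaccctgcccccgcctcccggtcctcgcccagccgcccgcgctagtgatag
Cyr61, chr3:145650029-145650142, minus strand, match 103 bases before the start: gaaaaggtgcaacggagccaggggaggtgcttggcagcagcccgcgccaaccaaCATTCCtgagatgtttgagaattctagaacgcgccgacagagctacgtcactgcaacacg
The Yap1, Wwtr1, Vgll3 and Cyr61 windows lie outside the annotated span of their gene. The shorter Vgll4 window lies inside it, upstream of the start used. A match says only that these letters stand there, and no binding was measured in these libraries.

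In GRCm38.p6, Yap1 lies on chromosome 9 (7931999 to 8004638), Wwtr1 on chromosome 3 (57455644 to 57575910) and Vgll4 on chromosome 6 (114860621 to 114970007). Tead1 lies on chromosome 7 (112679356 to 112906784), as does Tead2 (45215792 to 45233468), Tead3 on chromosome 17 (28331671 to 28350805) and Tead4 on chromosome 6 (128227143 to 128300813). Wwtr1 overlaps the predicted gene Gm16016 and Vgll4 overlaps Gm38876 in this annotation, and without a stated strand setting reads of overlapping genes cannot be told apart. The expected counts of all 7 genes were whole numbers in all 12 libraries (within 0.005), so the read assignment did not divide reads between a member and another gene, and the TEAD paralogs did not exchange reads.

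Libraries held from 4.29e+07 to 5.72e+07 expected counts, with 17611 to 18163 genes detected. The ESC label was checked against naive pluripotency markers. All 8 were tested and none was called in either experiment by edgeR, DESeq2, limma-voom or the edgeR exact test (5 were lower in YAP KD and 1 in YAP OE at an unadjusted p under 0.05 in edgeR), and their summed level lay between 5490 and 6038 CPM in the KD libraries and between 5576 and 5961 in the OE libraries. CPM are read counts scaled to a common library size with TMM factors. Fibroblast markers summed to between 1.88 and 3.16 CPM over all libraries, with Lum at 0 in 10 of them. None of the 4 tested was called by the same 4 tools, although Col1a1 (215% of control) and Col1a2 (165%) were higher in YAP KD at an unadjusted p under 0.05 in each tool, and none reached it in YAP OE. Some trophoblast markers were called. In YAP KD, 2 of the 4 tested were higher (Tfap2c and Krt8) and none lower, against 5.49% of all genes called, with sums of 115 to 127 CPM in CTR KD and 153 to 161 in YAP KD. In YAP OE, 4 of the 7 tested were higher (Cdx2, Gata3, Krt8 and Krt18) and none lower in edgeR, against 2.13% of all genes called, with sums of 148 to 161 CPM in CTR OE and 169 to 200 in YAP OE. Tfap2c went the other way there, to 89.5% of control with all YAP OE libraries below the controls (adjusted p = 0.0935 by edgeR, not called), and its difference between the experiments was called (-0.63, adjusted p = 0.000125 by edgeR). The defining marker Cdx2 had 4 to 12 expected counts in every library but YAP OE, where it had 28 to 34, and Elf5 had at most 9 in any library. Of the primitive endoderm markers, edgeR called Dab2 alone, higher in YAP OE. The part of these markers in the members' values was not tested.

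The relative levels of the 7 genes were compared in the 6 control libraries, as CPM per kilobase of effective length. Tead2 stood highest, with 40.0 ± 1.60 (SD, n = 6), followed by Yap1 with 32.5 ± 1.87. Tead1 followed at 7.44 ± 0.515, Tead4 at 6.06 ± 0.908 and Wwtr1 at 5.78 ± 0.375, so TAZ RNA was 5.62-fold below YAP RNA. Vgll4 (1.67 ± 0.287) and Tead3 (1.5 ± 0.294) were the lowest, 19.4-fold and 21.7-fold below Yap1.
Neighbours in this order were compared within libraries by an exact two-sided sign-flip permutation test, for which 6 libraries allow no p under 0.03125. Tead2 exceeded Yap1 by 0.30 on the log2 scale, Yap1 exceeded Tead1 by 2.13 and Wwtr1 exceeded Vgll4 by 1.80, each in 6 of 6 libraries (exact permutation p = 0.03125, adjusted over 6 pairs 0.0625). Tead1 was above Tead4 in 5 of 6 (adjusted p = 0.0938 by the exact permutation test). The order of Tead4 and Wwtr1 was not settled (3 of 6, adjusted p = 0.688 by the exact permutation test), nor was that of Vgll4 and Tead3 (4 of 6, adjusted p = 0.413 by the exact permutation test). The control level of Tead4 was 6.84 in CTR KD and 5.27 in CTR OE and that of Tead3 was 1.24 and 1.76, and here transfected material and experiment cannot be told apart. YAP and TAZ together therefore stood below the 4 TEADs in the controls of both experiments, where 1 paralog, Tead2, made up 72.7% and 72.8% of TEAD RNA.

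**Figure D1:**
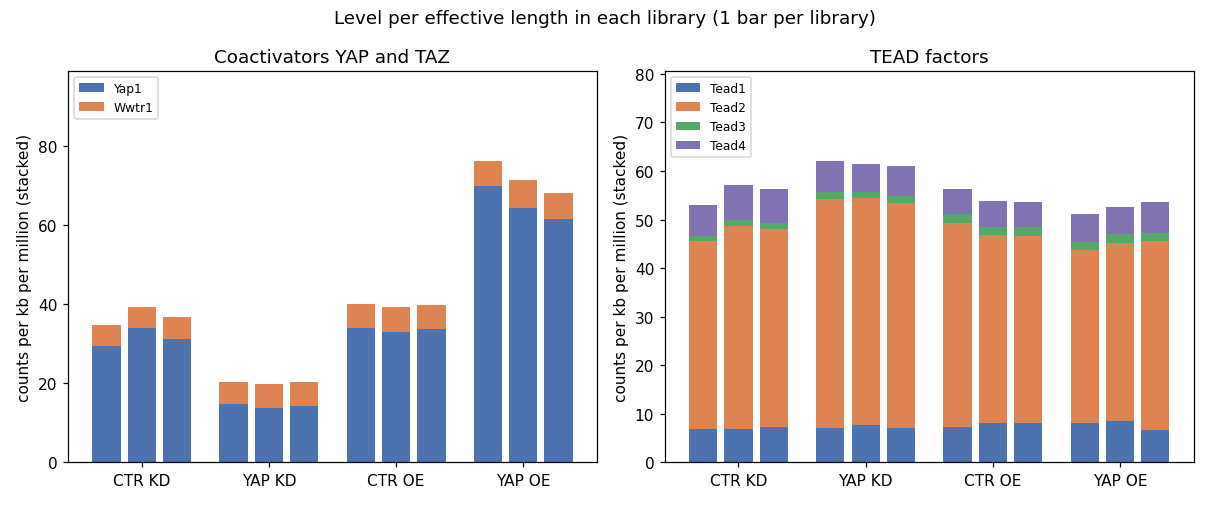
Stacked level of YAP and TAZ (left) and of the 4 TEAD factors (right) in each of the 12 libraries, as CPM per kilobase of effective length. Each bar is 1 library, in replicate order within its group. The Wwtr1 part stays near 5 to 7 in every library while the Yap1 part falls to about 14 in YAP KD and rises past 61 in YAP OE, and Tead2 fills most of each TEAD bar.

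The knockdown asked what the other members do when YAP is lowered, and the overexpression what they do when it is raised. The 6 libraries of each experiment were fitted separately by the edgeR quasi-likelihood test, and a gene was called at an adjusted p under 0.05 over all genes tested. In YAP KD, 2 of the 7 members were called, Yap1 (lower) and Tead2 (higher), against 5.49% of the 14606 genes tested (2.71% higher, 2.78% lower). In YAP OE, Yap1 alone was called, against 2.13% of 14804 genes (1.66% higher, 0.473% lower). The libraries of YAP and control did not overlap for 4 members in YAP KD, where 25.9% of all genes had this property, and for 3 in YAP OE, where 18.1% had it. Yap1 is the manipulated gene, so among the other 6 members the edgeR count was 1 in YAP KD and 0 in YAP OE. At an unadjusted p under 0.05 it was 3 in YAP KD (Tead2, Tead4 and Vgll4) and 4 in YAP OE (Wwtr1, Tead2, Tead4 and Vgll4), and DESeq2, limma-voom and the edgeR exact test also called none of the 6 in YAP OE. The share of all genes at that unadjusted p was not counted, here or for the gene lists, so these counts have no background to be read against.

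**Figure D2:**
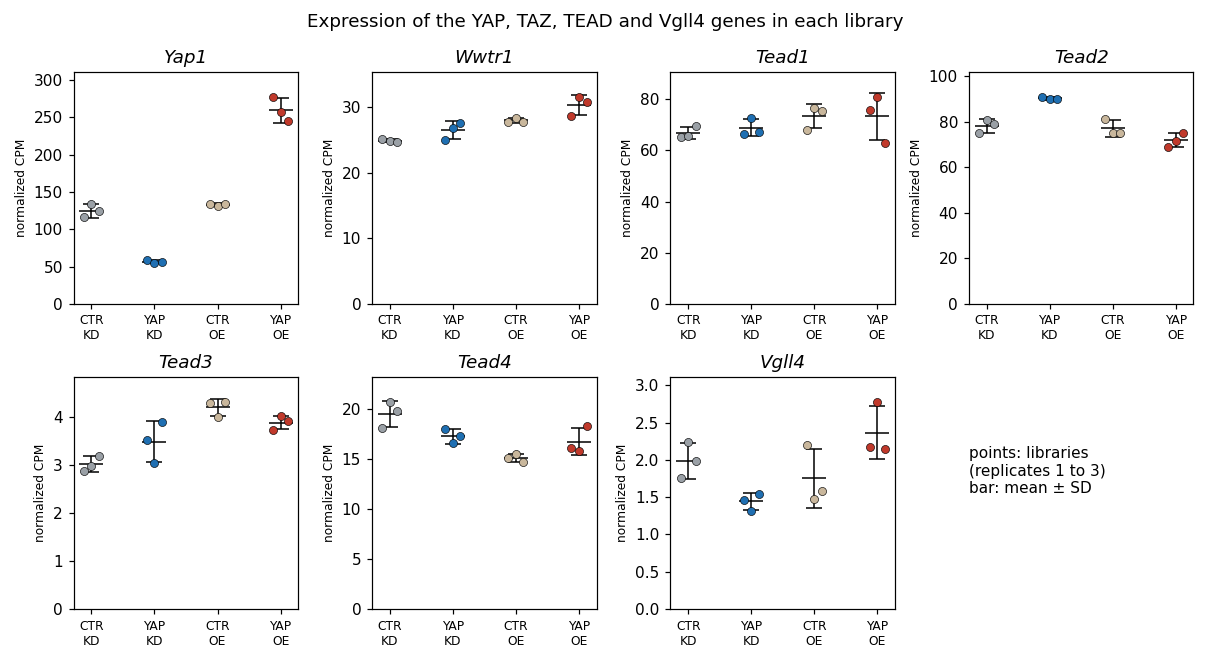
TMM-normalized CPM of each member in every library, with the mean and SD of each group of 3. Yap1 separates by group in both directions, the YAP KD libraries of Tead2 sit close together above their controls, and for Tead1 and Tead3 the YAP libraries overlap their own controls.

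Yap1, the targeted gene, was measured at 116, 134 and 124 CPM in CTR KD and at 58.2, 54.8 and 56.5 in YAP KD. The groups were far apart, and 45.3% of the control level remained (95% interval 41.4% to 49.4%, log2 fold change -1.14 ± 0.0568 SE, adjusted p = 4.36e-05 by edgeR). In the OE experiment it was measured at 134, 131 and 134 CPM in CTR OE and at 278, 257 and 245 in YAP OE. This was 195% of the control level (182% to 209%, log2 fold change 0.97 ± 0.0470, adjusted p = 3.47e-08 by edgeR). A coding-sequence transcript is shorter than the endogenous one and yields fewer reads per molecule, so the rise in YAP OE is counted in reads and not in molecules.

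Wwtr1, the gene of TAZ, carries out many of the functions of YAP and can stand in for it in other settings. It was measured at 25.1, 24.9 and 24.7 CPM in CTR KD and at 25.0, 26.9 and 27.6 in YAP KD. The lowest YAP KD library lay within the controls, and the log2 fold change of 0.092 ± 0.0503 was not called (adjusted p = 0.364 by edgeR). The 95% interval ran from 98.6% to 115% of control, so a rise of TAZ RNA above 115% lay outside it. In YAP OE, Wwtr1 was 28.6, 31.6 and 30.8 CPM against 27.7, 28.4 and 27.8 in CTR OE. All YAP OE libraries lay above all CTR OE libraries, by little (108% of control, 101% to 116%, adjusted p = 0.277 by edgeR). Wwtr1 therefore did not change past the threshold in either experiment, and its 2 effects did not differ detectably (difference 0.026, 95% interval -0.12 to 0.17, adjusted p = 0.869 by edgeR).

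Among the TEADs, Tead2 was the member other than Yap1 that passed the test. It is the most abundant TEAD of these cells and a paralog known from the early embryo. Its level was 74.9, 80.7 and 79.1 CPM in CTR KD and 91.0, 90.1 and 89.9 in YAP KD. All 3 knockdown libraries exceeded the highest control, and Tead2 rose to 115% of control (108% to 123%, log2 fold change 0.21 ± 0.0419, adjusted p = 0.0211 by edgeR). The call is close to the threshold. With 1 library left out it held without CTR KD replicate 2 (adjusted p = 0.00676), and it was lost without each of the other 5, CTR KD replicate 1 (0.0681), CTR KD replicate 3 (0.0788) and YAP KD replicates 1 (0.0934), 2 (0.0964) and 3 (0.0787), with log2 fold changes from 0.17 to 0.23. In YAP OE, Tead2 was 69.1, 71.4 and 75.1 CPM against 81.4, 75.0 and 75.1 in CTR OE. These groups overlapped, and 93.2% of the control level was not a called change (87.2% to 99.5%, adjusted p = 0.331 by edgeR).

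Tead4, the TEAD of the trophectoderm, was measured at 18.1, 20.7 and 19.8 CPM in CTR KD and at 18.0, 16.6 and 17.3 in YAP KD. Every knockdown library was below every control, yet the log2 fold change of -0.18 ± 0.0626 was not called (88.4% of control, adjusted p = 0.145 by edgeR). In the OE experiment it was 15.1, 15.5 and 14.7 CPM in CTR OE and 16.1, 15.8 and 18.3 in YAP OE. All YAP OE libraries were above all controls, and 0.15 ± 0.0618 was not called either (111% of control, adjusted p = 0.282 by edgeR).

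Tead1 and Tead3 overlapped their controls in both experiments. Tead1, a broadly expressed TEAD, ranged from 65.3 to 69.4 CPM in CTR KD and from 66.6 to 72.9 in YAP KD (log2 fold change 0.046, adjusted p = 0.678 by edgeR). In the OE experiment its range was 67.9 to 76.6 CPM in CTR OE and 62.9 to 81.0 in YAP OE, where it stood at 99.8% of control (89.7% to 111%). Tead3, the least abundant TEAD, ranged from 2.87 to 3.20 CPM in CTR KD and from 3.04 to 3.90 in YAP KD (log2 fold change 0.21, adjusted p = 0.352 by edgeR). Its OE values were 4.0 to 4.32 CPM in CTR OE and 3.73 to 4.02 in YAP OE (-0.12, adjusted p = 0.663 by edgeR). Tead3 rested on 131 to 227 expected counts per library, and its KD interval spanned 97.2% to 138% of control.

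Vgll4, the repressor that competes with YAP for TEAD, was measured at 1.75, 2.23 and 1.98 CPM in CTR KD and at 1.46, 1.32 and 1.55 in YAP KD. The groups did not overlap, and 72.5% of the control level remained (58.3% to 90.2%, log2 fold change -0.46 ± 0.141), which missed the threshold (adjusted p = 0.0993 by edgeR). In the OE experiment Vgll4 was 2.20, 1.48 and 1.58 CPM in CTR OE and 2.18, 2.78 and 2.15 in YAP OE. Control replicate 1 lay above 2 of the YAP libraries, and the log2 fold change of 0.42 ± 0.162 was not called (134% of control, 105% to 170%, adjusted p = 0.253 by edgeR). Vgll4 was counted from 58 to 121 reads per library, so its intervals were the widest of the 7.

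**Figure D3:**
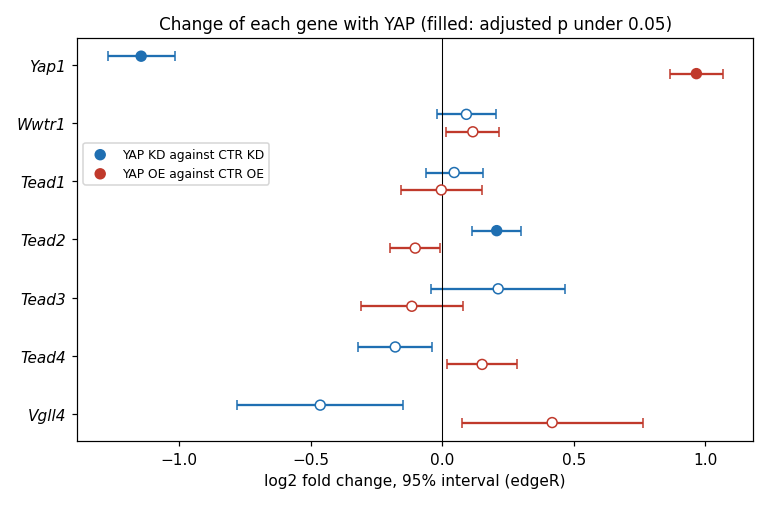
Log2 fold change of each member in YAP KD (blue) and YAP OE (red) with its 95% interval from edgeR. Filled points passed an adjusted p of 0.05, which are Yap1 in both experiments and Tead2 in YAP KD. Tead4 and Vgll4 lie on the side of Yap1 in each experiment, Tead2 and Tead3 on the other side, and the Wwtr1 and Tead1 points stay within 0.12 of 0.

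Whether a gene responded differently to gain and loss of YAP was tested in 1 fit over all 12 libraries, as the OE effect minus the KD effect. For 4 of the 7 members the difference was called, against 8.8% of 15049 genes (5.24% higher, 3.56% lower). It was 2.11 ± 0.0780 for Yap1 (adjusted p = 5.34e-10 by edgeR), 0.88 ± 0.232 for Vgll4 (0.0258), 0.33 ± 0.0918 for Tead4 (0.0346) and -0.31 ± 0.0634 for Tead2 (0.00631). Yap1 is the manipulated gene, so its difference was set by the design, and the called members beside it were Vgll4, Tead4 and Tead2. The differences of Vgll4 and Tead4 thus had the sign of that of Yap1, and the Tead2 difference had the opposite sign. Each effect is relative to its own controls, which for Tead4 stood at 18.1 to 20.7 CPM in CTR KD and 14.7 to 15.5 in CTR OE. The YAP libraries of Tead4 overlapped between the experiments, at 16.6 to 18.0 CPM in YAP KD and 15.8 to 18.3 in YAP OE. Its called difference therefore rests on controls that differed between the experiments. Tead3 (-0.33, adjusted p = 0.163), Tead1 (-0.047, 0.848) and Wwtr1 were not called by edgeR. The Tead2 difference was called without any 1 of the 12 libraries (adjusted p at most 0.0202). The Tead4 difference was lost without CTR KD replicates 2 (0.0574) or 3 (0.0783), YAP KD 2 (0.0897) or 3 (0.0711), CTR OE 1 (0.0703), 2 (0.0509) or 3 (0.0883), or YAP OE 3 (0.0875). The Vgll4 difference was lost without CTR KD replicates 2 (0.0556) or 3 (0.0555), YAP KD 2 (0.0681), CTR OE 2 (0.0660) or 3 (0.0742), or YAP OE 2 (0.0654), with values from 0.76 to 1.08. Neither difference changed sign when a library was left out.

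The composition of the module was described per library from the levels per length, with exact two-sided permutation tests of 3 against 3 libraries, for which 0.10 is the smallest p (20 tests, adjusted p = 0.133 wherever the groups did not overlap). TAZ made up 15.8%, 13.8% and 14.7% of YAP plus TAZ RNA in CTR KD and 27.1%, 29.8% and 29.8% in YAP KD. Its share thus reached 196% of that in the controls, with no overlap, although Wwtr1 itself was not called. Yap1, the manipulated gene, is in the denominator, so with Wwtr1 little changed the direction of this share was set by the manipulation. In the OE experiment the share was 15.4% ± 0.358 in CTR OE and 9.27% ± 0.888 in YAP OE (SD, n = 3). The summed level of YAP and TAZ fell from 36.9 ± 2.29 to 20.1 ± 0.294 in YAP KD, to 54.4% of control, and rose from 39.6 ± 0.424 to 71.8 ± 3.98 in YAP OE, to 181%. Yap1 makes up most of this sum, so its direction too was set by the manipulation. In YAP OE, plasmid reads were divided by the length of the annotated transcripts, so share and sum there are not in molecules.

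The TEAD sum moved less than the coactivators. It was 55.5 ± 2.15 in CTR KD and 61.5 ± 0.520 in YAP KD (111% of control), without overlap. In the OE experiment it was 54.6 ± 1.52 in CTR OE and 52.4 ± 1.22 in YAP OE (95.9%). There the groups all but touched, at 53.60 in CTR OE replicate 3 and 53.54 in YAP OE replicate 3. The ratio of YAP plus TAZ to TEAD RNA was 0.665 ± 0.0211 in CTR KD, 0.326 ± 0.00576 in YAP KD, 0.726 ± 0.0178 in CTR OE and 1.37 ± 0.108 in YAP OE. By this measure, coactivator RNA was below TEAD RNA in 3 of the 4 groups and above it in YAP OE. Yap1 was the second most abundant member behind Tead2 in CTR KD, YAP KD and CTR OE, and the most abundant in YAP OE. The YAP OE values count plasmid reads at the length of the annotated transcripts, so they are not in molecules. The ratio contains Yap1, so its direction in each experiment followed the manipulation.
Within the TEAD sum, Tead2 took 72.8%, 72.9% and 72.3% in CTR KD and 76.1%, 75.8% and 75.8% in YAP KD. The Tead4 share was 12.3% ± 0.349 in CTR KD and 9.83% ± 0.370 in YAP KD (SD, n = 3), without overlap. A higher Tead2 by itself lowers the other shares of the sum, and the level of Tead4 was not called. In YAP OE, Tead4 stood at 11.2% ± 0.736 against 9.66% ± 0.324 in CTR OE, again without overlap, while the Tead2 share overlapped (72.8% ± 1.52 and 70.8% ± 1.53, exact permutation p = 0.3). Tead1 and Tead3 shares overlapped in both experiments. The TEAD sum per unit of Vgll4 was 31.4 ± 2.68 in CTR KD and 47.7 ± 3.85 in YAP KD, and 35.7 ± 6.42 in CTR OE and 25.0 ± 3.38 in YAP OE. The mean ratio was thus higher in the knockdown and lower in the overexpression, where the closest libraries were CTR OE replicate 1 (28.5) and YAP OE replicate 3 (27.8). It rests on Vgll4, which had few reads and was not called in either experiment.

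Isoform use was read from the abundance-weighted mean transcript length that RSEM reports for each gene in each library. Each member was counted over 1 to 3 RefSeq transcripts, and Vgll4, with 1, had a fixed length of 1293 bases. Yap1, counted over 2 transcripts, measured 4143.06, 4143.01 and 4143.55 bases in CTR OE and 4165.76, 4164.86 and 4164.68 in YAP OE. The groups were separated by 21.9 bases with little spread in either (limma unadjusted p = 4.18e-05), but over the 3959 genes tested the adjusted p was 0.166, and limma called none of these genes (0%), with 204 at an unadjusted p under 0.05. In YAP KD the length differed by -1.56 bases, the groups overlapped, and 0% of 3900 genes were called there (202 at an unadjusted p under 0.05). If the endogenous Yap1 RNA kept both the level and the length of the controls, the mean length assigned to the added transcripts follows by simple arithmetic. It was 4187, 4188 and 4190 bases in the 3 YAP OE libraries. Neither assumption was tested. The length is that of the annotated transcripts to which reads were assigned and not of the plasmid's RNA.
The lengths of the other members gave no called change. Tead2 varied by 2.15 bases over the 12 libraries and Wwtr1 by 4.87. Tead4 varied by 24.9 bases, Tead1 by 83.0 (from 9575 to 9658) and Tead3 by 156, or 6.28%. For all 5 genes the YAP libraries overlapped their controls in both experiments. The length of Tead2 in YAP KD ranged by under 1 base and was not tested, nor was that of Vgll4. In limma the adjusted p of the other member lengths tested, beside that of Yap1 in YAP OE, was at least 0.981. Where tested, no shift in the mean length of Wwtr1 or a TEAD was detectable beyond the spread between libraries. The test called no gene in either experiment, Yap1 included, so this absence of calls has little weight. A switch between transcripts of like length would not move the mean.

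**Figure D4:**
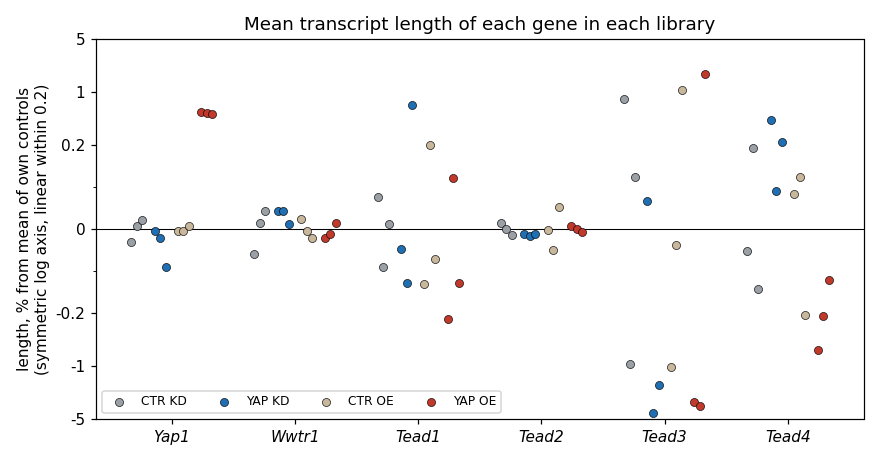
Mean transcript length of each member with more than 1 counted transcript, as percent difference from the mean of the control libraries of the same experiment, on a symmetric log axis. Each point is 1 library. The 3 YAP OE points of Yap1 lie together at about 0.5%, while Tead3 scatters more widely, and by more in the YAP groups than in the controls.

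The partners around the module were then counted over lists of pathway genes. These lists were chosen with earlier results of these data known, so their counts beside those of all genes are a description and not a test. TEAD cofactors and partners comprised the other vestigial-like genes, the p160 coactivators and AP-1 subunits, which often bind beside TEAD at enhancers. Of 8 tested (of 11), 1 was higher and 1 lower in YAP KD, against 2.71% and 2.78% of all genes (median log2 fold change -0.018, all genes 0.0058) and edgeR, DESeq2 and limma-voom called none in YAP OE, where 4 had an unadjusted p under 0.05 in edgeR and the edgeR exact test called Vgll3 (median 0.0030, all genes -0.0025). The AP-1 subunit Fosl2 rose from 1.74 ± 0.289 to 3.00 ± 0.125 CPM in YAP KD (log2 fold change 0.78, adjusted p = 0.00918 by edgeR), and the p160 coactivator Ncoa1 fell from 30.6 ± 1.19 to 24.6 ± 0.776 (-0.31, 0.00677). The controls of Fosl2 differed between the experiments, with 3.06 to 3.24 CPM in CTR OE, and transfected material and experiment cannot be told apart. Vgll3, a TEAD cofactor related to Vgll4, was measured at 2.71, 3.41 and 3.04 CPM in CTR OE and at 4.06, 3.60 and 4.26 in YAP OE, above every control but not called (0.39 ± 0.111, adjusted p = 0.0996 by edgeR). Its difference between the experiments was called (0.66 ± 0.184, adjusted p = 0.0358 by edgeR), with -0.27 in YAP KD. Vgll1 had 2 to 6 expected counts in 9 libraries and 19, 10 and 11 in YAP OE, and Vgll2 had at most 4 in any library. Both were below the count filter and were not tested.

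The Hippo kinases and scaffolds act upstream of the members as the inhibitory branch. Of 23 tested, edgeR called 4 lower and 1 higher in YAP KD (median -0.024), where 2.78% of all genes were called lower and 2.71% higher. In YAP OE 5 were called higher (median 0.056), where 1.66% of all genes were called higher and 0.473% lower. None was called lower there by edgeR, DESeq2, limma-voom or the edgeR exact test, with 1 lower at an unadjusted p under 0.05 in each. Wwc2, a scaffold of the LATS kinases, fell from 48.2 ± 4.27 to 35.1 ± 2.03 CPM in YAP KD (-0.46, adjusted p = 0.00587 by edgeR) and rose from 49.1 ± 1.17 to 57.5 ± 3.56 in YAP OE (0.23, 0.0160). Frmd6, a FERM-domain scaffold, went from 17.7 ± 0.391 to 14.3 ± 0.436 CPM in YAP KD and from 17.4 ± 0.626 to 20.6 ± 1.21 in YAP OE (adjusted p = 0.00876 and 0.0314 by edgeR). Ptpn14, a phosphatase that binds YAP, followed the same course (-0.38 and 0.29, adjusted p = 0.0134 and 0.00246 by edgeR). The kinase Lats2 rose in YAP OE (0.43, adjusted p = 0.00902 by edgeR), and the kinase Map4k4 rose slightly in YAP KD (0.14, adjusted p = 0.0491 by edgeR). The core kinases Stk3 and Lats1 and the scaffold Nf2 were not called in either experiment.

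YAP/TEAD target genes report on the output of the module, and Amotl2, Lats2 and Ptpn14 stand in this list as well as in the previous one. Of 19 tested, edgeR called 5 lower and 1 higher in YAP KD (median -0.041, all genes 0.0058), where 5.49% of all genes were called. In YAP OE it called 5 higher (median 0.14, all genes -0.0025), against 2.13% of all genes. edgeR, DESeq2 and limma-voom called none lower in YAP OE, with 1 lower at an unadjusted p under 0.05 in each, and the edgeR exact test called this gene, Nt5e (-0.52), and 6 higher, adding Nuak2. In YAP KD the edgeR exact test also called Gadd45a higher. Ctgf, a secreted matricellular protein, was measured at 23.6 ± 1.09 CPM in CTR KD, 14.5 ± 0.702 in YAP KD, 24.4 ± 1.02 in CTR OE and 30.3 ± 0.519 in YAP OE (SD, n = 3). The groups did not overlap in either experiment, and it passed the test in both directions (-0.71 and 0.31, adjusted p = 0.000221 and 0.00150 by edgeR). Amotl2, an angiomotin that retains YAP at junctions, went from 71.8 ± 5.81 to 42.95 ± 0.801 CPM in YAP KD and from 80.6 ± 1.49 to 103 ± 4.12 in YAP OE (adjusted p = 0.000169 and 0.000209 by edgeR).
Cyr61, the relative of Ctgf whose promoter window was printed with those of the members, rose in YAP OE. It was measured at 8.70, 8.07 and 8.39 CPM in CTR OE and at 15.6, 18.1 and 16.5 in YAP OE, and rose to 199% of control (adjusted p = 1.18e-06 by edgeR). In the KD experiment it was 4.91, 7.34 and 6.73 CPM in CTR KD and 6.07, 6.72 and 5.87 in YAP KD, where the groups overlapped (-0.032, adjusted p = 0.933 by edgeR). Its difference between the experiments was called (1.03 ± 0.156, adjusted p = 0.000666 by edgeR). Myof and Nuak2 were the other target genes lower in YAP KD (-0.25 and -0.38, adjusted p = 0.0316 and 0.0157 by edgeR), and Nt5e, a surface nucleotidase, was the 1 that was higher, from 0.955 ± 0.153 to 1.79 ± 0.237 CPM (0.91, 0.0144).

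**Figure D5:**
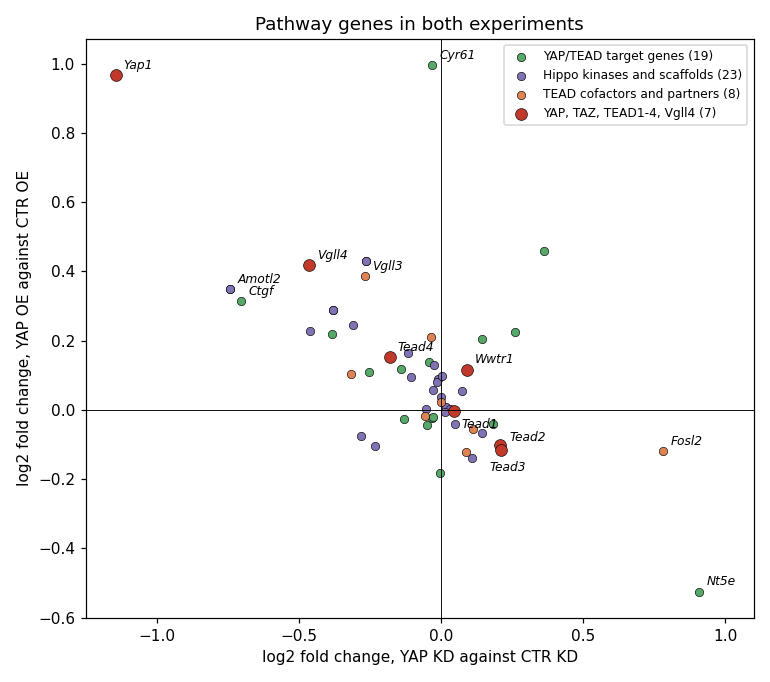
Log2 fold change in YAP KD (horizontal) against that in YAP OE (vertical) for the 7 members and the 3 pathway lists, 1 point per gene tested in both, with the number of genes in the legend. A gene of 2 lists takes the colour drawn last. Yap1 stands alone at the upper left, Vgll4 and Tead4 lie in the same quadrant nearer the centre with Amotl2 and Ctgf, and Cyr61 lies high near 0 on the horizontal axis.

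To place the members among all genes, likeness to Yap1 was measured as the root mean square difference over 12 libraries between log2 CPM profiles, each taken relative to the mean of the controls of its own experiment. Over 12394 genes, the profiles nearest to Yap1 were those of Fgfbp1 (0.245), Klhdc7a (0.263), Hecw2 (0.264), Atp12a (0.271) and Lamb3 (0.287). Fgfbp1, a secreted carrier of fibroblast growth factors, went from 10.6 to 5.30 CPM in YAP KD and from 11.3 to 16.3 in YAP OE. Lamb3, a laminin chain, went from 4.21 to 1.84 CPM and from 4.02 to 5.54. The members themselves were spread widely over this ranking. Vgll4 came at rank 77 (0.465), Tead4 at 777 and Wwtr1 at 5718, while Tead1 (7659), Tead2 (11538) and Tead3 (11555) were far down. Likeness here is a description over 12 libraries of 4 groups and rewards the size of a change as well as its direction.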

How the data were processed

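RNA-seq of 12 E14Tg2a ESC libraries was used, in 4 groups of 3 independent samples. Per the labels and the study's methods, the authors aligned reads with STAR to mm10 and quantified curated RefSeq genes with RSEM. Tool versions and a strand setting are not given in the sources used here. The deposited values are expected counts (estimated, not normalized), with TPM and FPKM scaled by the authors to gene length and depth, and mean and effective transcript lengths. The FPKM values deposited were not used in a test. Here, expected counts were rounded and fitted with edgeR 4.0.16 in R 4.3.3 (filterByExpr, TMM factors, quasi-likelihood F test, two-sided, Benjamini-Hochberg adjustment over all genes, called at adjusted p under 0.05), each experiment on its 6 libraries. The difference between experiments came from 1 fit over 12 libraries. SE is the absolute log2 fold change over the square root of F. CPM are TMM-normalized, and levels per length divide them by kilobases of effective length, within each experiment. Lengths were tested with limma 3.58.1 on log2 length, over genes ranging by at least 1 base. On simulated data, edgeR recovered 58% (YAP KD, 14517 genes) and 84% (YAP OE, 14719 genes) of changes of 1.25-fold and all of 2-fold. It made 16 false calls in YAP KD and 11 in YAP OE. Changes below 1.25-fold, such as that of Tead2 in YAP KD, were not simulated. Every replicate pair differed by more than counting error (chi-square over its degrees of freedom 3.54 to 25.7).

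The members and lists were chosen with earlier results of these data known. Genes named are the members, list genes called in either experiment, Ctgf, Cyr61, Vgll1 to Vgll3, and the 5 genes nearest to Yap1 among those averaging 50 or more expected counts. Stk3, Lats1, Nf2, Elf5, Lum, Col1a1, Col1a2 and Gadd45a were named after their values were seen. DESeq2 1.42.0, other scalings, filters, TPM, a replicate block and left-out libraries served as alternatives. Sequences are from RefSeq (GRCm38.p6, the build mm10), matched by symbol.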

Additional observations from a re-analysis of the deposited data

Results flagged for a closer look

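For 4 genes the effect in YAP OE differed from that in YAP KD by a test of the difference itself, the interaction term of the edgeR fit over 12 libraries. The experiments moved YAP in opposite directions. The OE effect minus the KD effect, in log2 units, was 2.11 for Yap1 (adjusted p = 5.34e-10), 0.88 for Vgll4 (0.0258), 0.33 for Tead4 (0.0346) and -0.31 for Tead2 (0.00631) in edgeR. The Yap1 value is the manipulation itself. For Vgll4 and Tead4, neither experiment alone passed the threshold, and for Tead2 YAP KD alone did.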

How the results depend on the processing

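Of 699 alternative values over 50 results, 639 kept their direction and their side of the threshold or, for shares of RNA, which had no threshold, moved by less than 1 SD. Of the tested values 19 changed sign, none of them called, and 3 of the shares that moved by less than 1 SD did so too. Yap1 was called in both experiments under all alternatives, and Wwtr1, Tead1, Tead3 and Tead4 were called in neither. The rise of Tead2 in YAP KD was not called on log2(TPM + 1) (0.19, adjusted p = 0.986) or log2(TPM + 0.1) (0.19, adjusted p = 1), and leaving out 1 library gave 0.17 to 0.23; apart from these and the replicate block, alternatives gave adjusted p from 0.00334 to 0.0267. The labels give same-numbered YAP and control libraries a shared number and do not say whether they were paired. The study's statistics section names paired samples for its t tests. Deviations of same-numbered libraries from the group means correlated at -0.36 to 0.062, and not every library correlated best with its own number. With 3 libraries a group these correlations cannot exclude a pairing. With the replicate block, Tead2 in YAP KD was 0.21 (adjusted p = 0.114), Tead4 and Vgll4 differences between experiments were 0.33 (0.118) and 0.89 (0.0816), and no other member call changed. The count of members called in YAP KD was 1 in these TPM and block fits and 1 to 2 with a library left out, against 2. The cause of these changes was not tested. Vgll4 in YAP KD was called by the edgeR exact test (-0.46, adjusted p = 0.0420, range over alternatives 0.0420 to 0.489). Leaving out 1 library gave 0.26 to 0.38 for the Tead4 difference and 0.76 to 1.08 for that of Vgll4. The Yap1 length change in YAP OE (0.0076 in log2) was called when every gene with a varying length was tested (adjusted p = 0.0120) and with a variance trend on log2 mean count (0.00413), an alternative chosen after seeing the data, but not in the other fits (up to 0.771). With mean transcript length as divisor, the order gave 0.24 for Tead2 over Yap1, 2.09 for Yap1 over Tead1, 0.37 for Tead1 over Tead4 and 1.96 for Wwtr1 over Vgll4, each at adjusted p = 0.0469 by the exact permutation test. With no length correction, Tead1 and Tead4 shares in YAP KD changed by -1.58 and -2.05 points. Sign changes concerned values near 0: Tead1 in YAP OE was 0.0016 with upper-quartile factors, 0.0065 with total counts, 0.018 on log2(TPM + 1), 0.017 on log2(TPM + 0.1) and -0.082 to 0.093 with a library left out. Left-out libraries gave -0.13 to 0.052 for the Tead1 difference, -0.012 to 0.066 for that of Wwtr1, -0.014 to 0.12 for Tead4 over Wwtr1, and, for log2 length, -0.0013 to 0.0044 (Tead1, YAP KD), -0.0026 to 0.00029 (Tead1, YAP OE), -0.00024 to 0.000097 (Wwtr1, YAP OE) and -0.00035 to 0.00038 (Tead2, YAP OE). The YAP OE change in share ran from -0.13 to 1.80 points for Tead1 and from -0.136 to 0.013 for Tead3. Vgll4 and Tead3 had the fewest counts of the members, and 3 libraries a group cannot give an exact p under 0.10.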
